A study of Homo sapiens with 17 samples.

Results

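Imprinted genes were examined in CUT&Tag summit lists of human pluripotent stem cells. The 10 genes were H19, IGF2, KCNQ1OT1, CDKN1C, DLK1, MEG3, SNRPN, PEG3, PEG10 and MEST, taken by name from the 59084 RefSeq genes of chromosomes 1 to 22 and X. All summits from 10 kb below to 10 kb above each gene were collected from all 17 lists. CUT&Tag uses an antibody on chromatin to direct the Tn5 transposase, which cuts and tags the DNA nearby. A summit is the base of highest signal in a called peak.

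At an imprinted gene the allele from one parent is expressed and the other is kept silent, according to DNA methylation that was set in the egg or the sperm. Imprinted genes lie in clusters, and a control region in each cluster often overlaps the start of a long non-coding RNA. Pluripotent stem cell lines are known to gain or lose imprints in culture. The lists were not split by parental allele, so a summit at these genes can come from either allele or from both.

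The cells were H1, an established human embryonic stem cell line. The knockdown cells were infected with 1 of 2 shRNAs against HNRNPU (shHNRNPU#1 or shHNRNPU#2). Control cells carried an shRNA to luciferase (shLUC), and puromycin selection followed in all of these. HNRNPU is a nuclear RNA-binding protein that has been studied as a part of the nuclear matrix, and the comparison asked how its knockdown changes chromatin. H3K4me1 (found at enhancers) and H3K27ac (found at active enhancers and promoters) were each profiled in 2 shHNRNPU#1, 2 shHNRNPU#2 and 2 shLUC libraries. For HNRNPU there were 2 libraries, both from untransfected cells. The antibody called POLIIS2P in the titles was used in 1 shHNRNPU#1 and 2 shLUC libraries. The protocol's list of primary antibodies names neither H3K4me1 nor POLIIS2P. All shRNA-treated libraries share the virus and the drug selection, and nothing says whether numbered repeats were separate cultures, so p-values measure only the spread between these libraries.

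For the 4 shLUC histone libraries the titles and the file names give opposite antibodies. The file names were followed here. Among the 20000 strongest summits, those named H3K4me1 shared 68.2% to 73.5% with the H3K4me1 lists of shHNRNPU cells and 18.2% to 25.8% with the H3K27ac lists. Those named H3K27ac shared 46.4% to 55.6% with the H3K27ac lists and 20.9% to 24.3% with the H3K4me1 lists. The lists held 147145 to 214333 summits for H3K4me1, 40487 to 90914 for H3K27ac, 34649 and 35526 for HNRNPU, and 79949 to 87456 for POLIIS2P. Read depth is unknown. The 2 shHNRNPU#1 libraries had the shortest list (40487) and the next shortest (51655) for H3K27ac. At 7 pluripotency genes, the 6 H3K27ac lists held a summit in every list for 6, and DPPA4 lacked one in 1 list. Among genes of other cell types, ALB had none, while COL1A1 and CDH5 had one in every list, so a H3K27ac summit near a gene is no sign that the gene is expressed. Near the HNRNPU gene the highest H3K27ac percentile was 86.1 to 95.9 after shHNRNPU, and 92.0 and 95.5 after shLUC. No assay here measures HNRNPU RNA or protein levels, so the knockdown could not be checked.

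The value of a gene in a library was the highest summit score in its window, given as the percentile of that score within the library's own list. A gene with no summit was set to 0. The percentile ranks the significance of a summit and is not an amount of protein or modification. The windows were 22.6 kb (CDKN1C) to 175 kb (SNRPN) long, and a longer window has more chances to hold a strong summit.

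**Figure D1:**
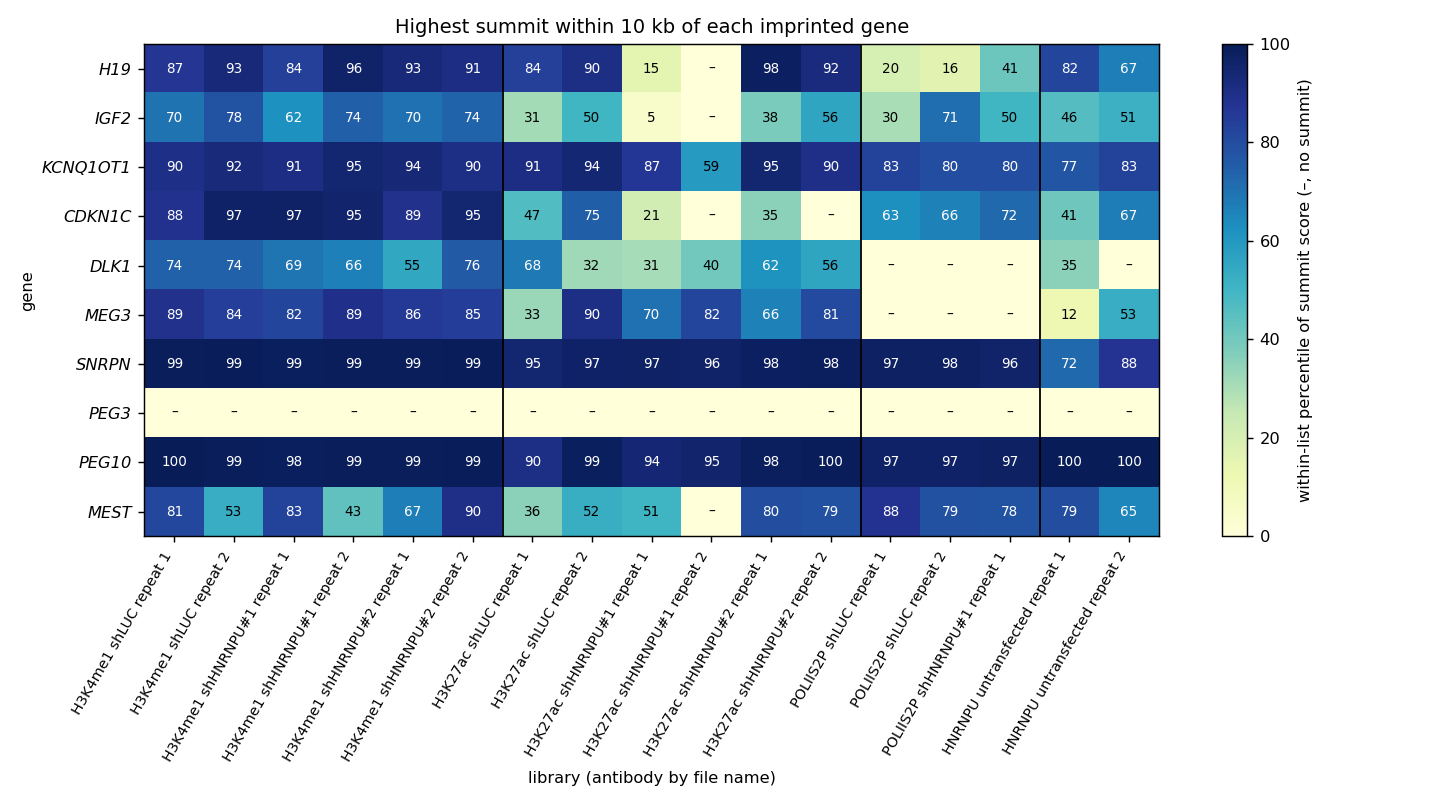
Highest within-list percentile of the summit score (colour and printed number, rounded) for the 10 genes (rows) in the 17 libraries (columns, grouped by antibody), with a dash where the window held no summit. PEG10 and SNRPN were high in every histone and POLIIS2P list, PEG3 was empty in all 17, and the H3K27ac values of H19, IGF2, CDKN1C and MEST varied between libraries.

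H3K4me1 was deposited at 9 of the 10 genes in each of its 6 lists. Over all RefSeq genes 63.2% had a summit in every H3K4me1 list, and among protein-coding genes 83.3% did. H3K27ac was present in every list at 5 genes (KCNQ1OT1, DLK1, MEG3, SNRPN and PEG10) and in some lists at 4. Of all genes 35.8% had it in every list, and of protein-coding genes 61.5% did. HNRNPU summits occurred in both repeats at 8 genes, against 43.3% of all genes. POLIIS2P summits occurred in all 3 lists at 7 genes, against 46.9% of all genes. Protein-coding genes had HNRNPU in both repeats in 74.0% and POLIIS2P in all 3 lists in 75.1%, close to these shares of the imprinted genes.

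In shLUC cells the genes spread widely. PEG10 (mean 99.4, range 99.2 to 99.6) and SNRPN (99.3, range 99.1 to 99.5) led in H3K4me1 and overlapped each other. CDKN1C, KCNQ1OT1, H19 and MEG3 followed with means of 92.6, 91.2, 89.8 and 86.6, and each overlapped its neighbour in this order. DLK1 (74.2), IGF2 (74.1) and MEST (67.2) came next, and MEST had the wider spread (52.9 and 81.5). In H3K27ac the order was SNRPN (95.7), PEG10 (94.6), KCNQ1OT1 (92.5) and H19 (87.1), in which PEG10 overlapped SNRPN and KCNQ1OT1, while H19 was below the other 3 in both libraries. MEG3 (33.0 and 90.3), CDKN1C (46.6 and 74.9) and DLK1 (68.1 and 31.8) differed between the 2 shLUC libraries by more than their means differed from each other. MEST (44.0) and IGF2 (40.5) came last among the genes with a summit and overlapped.

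The RefSeq promoter table (GRCh38.p14) matched 4 of the 10 genes (H19, MEG3, SNRPN and MEST) with 13 windows, of which 3 lay within 500 bp of an HNRNPU summit in both repeats. For MEST and SNRPN 1 such promoter each is shown, to set a promoter that HNRNPU adjoins beside the summits described further on. The remaining one, a later start of MEST, overlapped the HNRNPU summits of both repeats (0 bp) and is not printed. Its stretch runs past the earlier MEST start into sequence that may be transcribed. The same holds for the printed SNRPN stretch, which lies wholly past earlier listed SNRPN starts, the nearest directly after chr15:24954986. The 250 bases before the start are printed 5′ to 3′ in lower case, with each CG dinucleotide, the base pair step that carries methylation, in capitals. The MEST stretch is chr7:130485925-130486174 and the SNRPN stretch is chr15:24956050-24956299, both on the plus strand.
MEST: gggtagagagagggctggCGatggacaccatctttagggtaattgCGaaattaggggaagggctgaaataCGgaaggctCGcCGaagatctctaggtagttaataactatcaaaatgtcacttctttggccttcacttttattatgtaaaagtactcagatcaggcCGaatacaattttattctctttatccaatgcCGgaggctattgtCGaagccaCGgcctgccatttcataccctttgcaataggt
SNRPN: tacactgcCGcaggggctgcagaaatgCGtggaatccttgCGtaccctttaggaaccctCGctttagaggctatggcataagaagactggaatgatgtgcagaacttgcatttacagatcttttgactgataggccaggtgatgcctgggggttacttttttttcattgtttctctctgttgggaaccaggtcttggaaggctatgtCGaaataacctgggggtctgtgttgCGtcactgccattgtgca
The MEST stretch held 9 CG and the SNRPN stretch 6, against a median of 11 over the same 250 bases of 35116 promoters. The unprinted MEST stretch, chr7:130486097-130486346, held 20 CG and was 62.0% GC, so the promoters beside HNRNPU summits lay on both sides of the median. On either strand the MEST stretch held 1 CCAAT, present in 32.0% of all promoters, and 1 match to the YY1 core CCATNTT, present in 11.6%. Neither printed stretch held the GC box GGGCGG (42.6% of promoters), TATAAA (10.7%) or the NRF1 core CGCATGCG (1.73%), and the SNRPN stretch held none of the motifs searched other than CG. The unprinted MEST stretch held 1 NRF1 core and 1 CCAAT, and it overlaps the printed one in the part that holds the CCAAT. The GC box and the NRF1 core themselves contain CG. These are letter matches and not binding sites.

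H19 makes a maternally expressed non-coding RNA and IGF2 a paternally expressed fetal growth factor, and both are governed by a control region upstream of H19. At H19 the strongest histone summit was not in the gene. It lay at about chr11:2004642, 3.38 kb beyond the high-coordinate end (2001266), which is upstream because H19 is read on the minus strand. It was found in all 6 H3K4me1 lists, with percentiles of 83.9 to 96.3. In H3K27ac this summit stood at 83.8 and 90.3 in shLUC cells and at 97.9 and 92.0 in shHNRNPU#2 cells. No summit was called there in either shHNRNPU#1 list. HNRNPU had a summit at chr11:2004641 in both repeats, at the same base, with percentiles of 81.8 and 66.9. POLIIS2P had one there only in the shHNRNPU#1 library (25.2), and its other summits at H19 lay beyond the opposite end of the gene, or within it, at low percentiles. The promoter window of H19 itself, chr11:2001217-2001516, had no summit of any antibody within 500 bp.

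IGF2 was covered by 9 to 14 H3K4me1 summits per list, with highest percentiles of 62.4 to 78.4. Its HNRNPU summits at chr11:2137110 and chr11:2137177 lay inside the gene, 7993 bp from its low-coordinate end in repeat 1. They had H3K4me1 within 500 bp in all 6 lists and POLIIS2P in all 3, and H3K27ac in none. H3K27ac near IGF2 reached 31.1 and 49.8 in shLUC, 38.3 and 55.8 in shHNRNPU#2, and 4.67 and 0 in shHNRNPU#1.

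**Figure D2:**
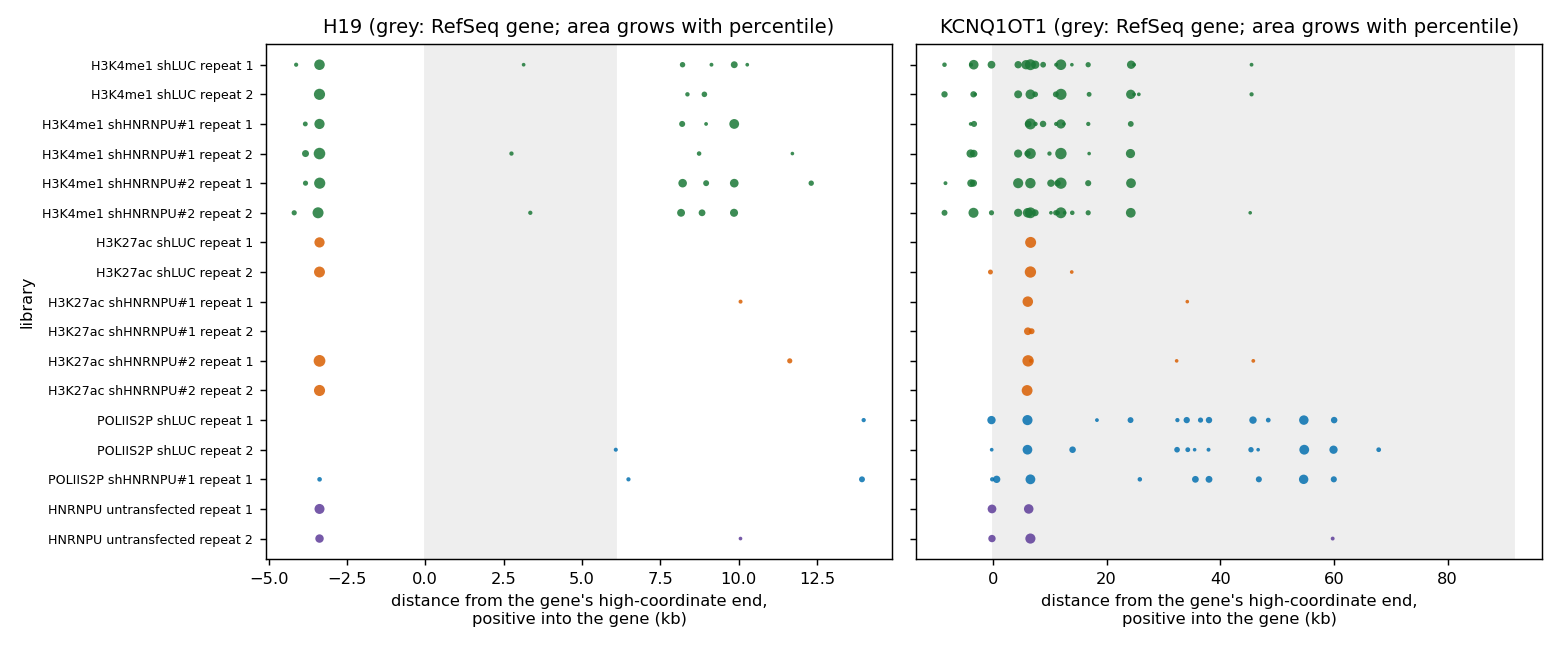
Summits by library (rows) against distance from the high-coordinate end of H19 (left) and KCNQ1OT1 (right) in kb, positive into the gene and negative beyond that end, with area growing with percentile. At H19 the strong summits line up 3.38 kb beyond the end and are missing from both H3K27ac shHNRNPU#1 lists, and at KCNQ1OT1 only POLIIS2P continues past 25 kb with 6 to 9 summits per list.

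KCNQ1OT1 is a paternally expressed antisense RNA that silences its neighbours, CDKN1C among them, and its start lies at its high-coordinate end within a control region. One place carried a summit in all 17 lists, at about chr11:2693389, 6.61 kb inside that end. There HNRNPU reached 77.3 and 83.0 and H3K27ac 90.9 and 94.2 in shLUC. In shHNRNPU cells H3K27ac there was 86.6 and 59.4 with shHNRNPU#1 and 94.8 and 89.6 with shHNRNPU#2. A further HNRNPU site lay at chr11:2700141 and chr11:2700146, 147 bp beyond the end, with POLIIS2P within 500 bp in all 3 lists.

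The marks divided along the gene. The 25 kb inside the high-coordinate end held 54 H3K4me1 summits over 6 lists and 7 POLIIS2P summits over 3 lists. The next 45 kb held 4 H3K4me1 summits, 3 H3K27ac summits and 1 HNRNPU summit, but 23 POLIIS2P summits, with 6 to 9 in each of the 3 lists. The remaining 21.7 kb held no summit of any antibody. The limits of 25 and 70 kb were not fixed before the summits were known, and lie just past some of them. An H3K4me1 site of all 6 lists lay 24.3 kb inside the end, and the farthest POLIIS2P summit 67.9 kb. The counts therefore describe these summits and are no test of a division. The gene lies within KCNQ1, and summits in this window cannot be assigned to either transcript.

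CDKN1C encodes a cyclin-dependent kinase inhibitor expressed from the maternal allele. All 6 H3K4me1 lists had their strongest summit at the same base, chr11:2883019, 199 bp beyond the low-coordinate end, with percentiles of 88.4 to 97.2. The highest POLIIS2P summits in the window lay in different places. In shHNRNPU#1 it was 72.1 at chr11:2882827, where shLUC had 39.3 and 30.5 close by. In shLUC it was 62.8 and 66.0 at chr11:2892397 and chr11:2892509, where shHNRNPU#1 had 69.65 close by. H3K27ac was at 46.6 and 74.9 in shLUC, from summits at chr11:2892978 and chr11:2892457 that lie over 6 kb beyond the high-coordinate end and near SLC67A1-AS. In shHNRNPU cells the highest value in the window was 21.4, 0, 35.3 and 0. Its summits lay elsewhere, at chr11:2880925 and chr11:2880963 beyond the low-coordinate end, where shLUC also had summits, at 30.52 and 37.65. Near SLC67A1-AS shHNRNPU#2 repeat 1 had a summit at 5.996, and the other shHNRNPU lists had none. An HNRNPU summit lay near the shLUC H3K27ac summits in both repeats, at chr11:2892322 and chr11:2892369, within 656 bp of them.

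DLK1 is a paternally expressed membrane protein related to Notch ligands, and MEG3 is the maternally expressed non-coding RNA of the same cluster. Neither had a POLIIS2P summit in any of the 3 lists. At DLK1 H3K4me1 was 54.9 to 76.2, mostly from a site 3.37 kb below the gene. H3K27ac came from a different place, 368 bp above the gene, and appeared there in all 6 lists (30.7 to 68.1). HNRNPU had a summit in 1 repeat only (35.2).

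At MEG3 the strongest H3K4me1 summits lay 9.67 kb below the gene, at about chr14:100816439, in all 6 lists (81.7 to 89.1). Its 3 promoter windows had no summit of any antibody within 500 bp. H3K27ac was 33.0 and 90.3 in shLUC and 66.2 to 82.3 in shHNRNPU cells. HNRNPU summits inside the gene, at chr14:100851195 and chr14:100851440, were weak in 1 repeat (11.9) and intermediate in the other (53.0).

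SNRPN encodes a splicing protein expressed from the paternal allele, within the Prader-Willi region. Its window held 39 separate sites, and H3K4me1 percentiles were 98.6 to 99.5 in the 6 lists. The strongest H3K4me1 summit of every list lay within 36 bp of the gene's first base, chr15:24823637. H3K27ac was 94.7 to 98.4, and its strongest summit was in different places, at about 35 kb into the gene in 3 lists. HNRNPU had summits at chr15:24951293, the same base in both repeats (59.8 and 87.5), and at chr15:24956660 and chr15:24956652 (72.1 and 78.6). The last pair lay 303 to 311 bp past the promoter window whose upstream sequence is printed above, and H3K27ac was within 500 bp of the pair in all 6 lists. POLIIS2P was strongest there in all 3 lists (96.0, 97.4 and 97.5).

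Downstream of the starts the pattern changed. From 2 kb past the last start listed in the promoter table to the end of SNRPN, 20.4 kb, POLIIS2P had 18 summits over 3 lists, with 5 to 7 in each. H3K4me1 had 4 over 6 lists, H3K27ac 1, and HNRNPU none. The limit of 2 kb was not fixed before the summits were known, and the change was not tested. The SNRPN window overlaps 10 other genes, SNHG14 and SNURF among them. Summits in it cannot be assigned to a single transcript.

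**Figure D3:**
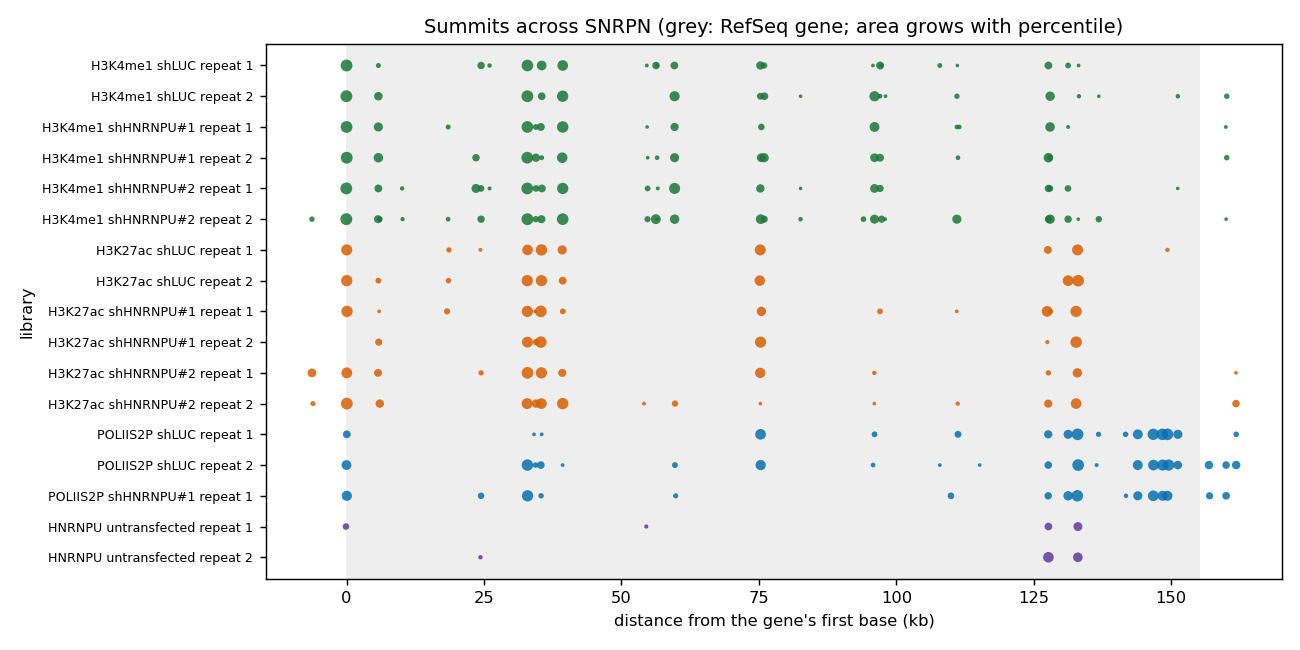
Summits by library (rows) across SNRPN against distance from its first base in kb, with area growing with percentile and the gene shaded. Both histone marks stand at the first base (H3K27ac in 5 of 6 lists) and around 35 kb, H3K27ac and HNRNPU stand near 133 kb, and POLIIS2P continues past 133 kb into the last part of the gene.

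PEG10 is a paternally expressed gene derived from a retrotransposon and shares a bidirectional control region with SGCE. All 4 antibodies met at 1 site, present in all 17 lists, at about chr7:94658442, 2.12 kb inside the low-coordinate end. The HNRNPU summits were at chr7:94658138 and chr7:94658136, 2 bp apart, with percentiles of 99.9 and 99.9. Their mean was at or above that of 99.6% of the 25592 genes with HNRNPU in both repeats. The other 7 imprinted genes with HNRNPU in both repeats were at or above 7.03% (MEG3) to 57.1% (KCNQ1OT1) of these genes. At PEG10 the H3K4me1 percentiles were 98.4 to 99.6, the H3K27ac percentiles 90.5 to 99.5 and the POLIIS2P percentiles 96.5 to 97.5.

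MEST is a paternally expressed hydrolase-fold protein. HNRNPU summits at chr7:130486292 and chr7:130486255 (79.3 and 64.9) lay 31 to 68 bp past the promoter window of the printed stretch. H3K4me1 was within 500 bp of them in all 6 lists and POLIIS2P in all 3. H3K27ac was called there in 3 of the 4 shHNRNPU lists, at 50.6, 79.5 and 78.6, and in neither shLUC list. The shLUC lists instead had H3K27ac near MESTIT1, at chr7:130491062 and chr7:130491284 (35.5 and 52.4), where no H3K27ac list of shHNRNPU had a summit. A later MEST start of the promoter table lies there too, with its window at chr7:130491079-130491378. Both places therefore lie by listed MEST starts. At the site past the printed stretch the groups overlapped (exact permutation p = 0.267). H3K27ac there was 52.2 ± 37.3 (SD, n = 4) in shHNRNPU and 0 in both shLUC libraries. Both places were singled out after their values were seen, and the site near MESTIT1 was not tested.

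Across the genes, 10 HNRNPU sites were found in both repeats. H3K4me1 was within 500 bp in both shLUC lists at 9 of these, POLIIS2P at 8 and H3K27ac at 4, the latter at H19, KCNQ1OT1, SNRPN and PEG10. The shLUC lists differed in length, with 179137 and 181357 summits for H3K4me1 and 62449 and 90914 for H3K27ac. The same shares over all HNRNPU sites were not counted, and the part of list length was not tested. No list of a control antibody was analysed here, so background cutting at open DNA and HNRNPU binding cannot be told apart at these sites.

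PEG3, a paternally expressed zinc-finger protein, had no summit in any of the 17 lists. No summit was found in any list for 13.0% of all genes and 5.26% of protein-coding genes. The nearest summits in any list were at chr19:56671674, 138 kb below PEG3, and chr19:57172309, 332 kb above it, which leaves 501 kb without a summit. It held 17 genes, 6 of them protein-coding, with the imprinted neighbours ZIM2, MIMT1 and USP29 inside. The pooled lists had 63 stretches at least as long. The peak numbers ran without gaps in every list.

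**Figure D4:**
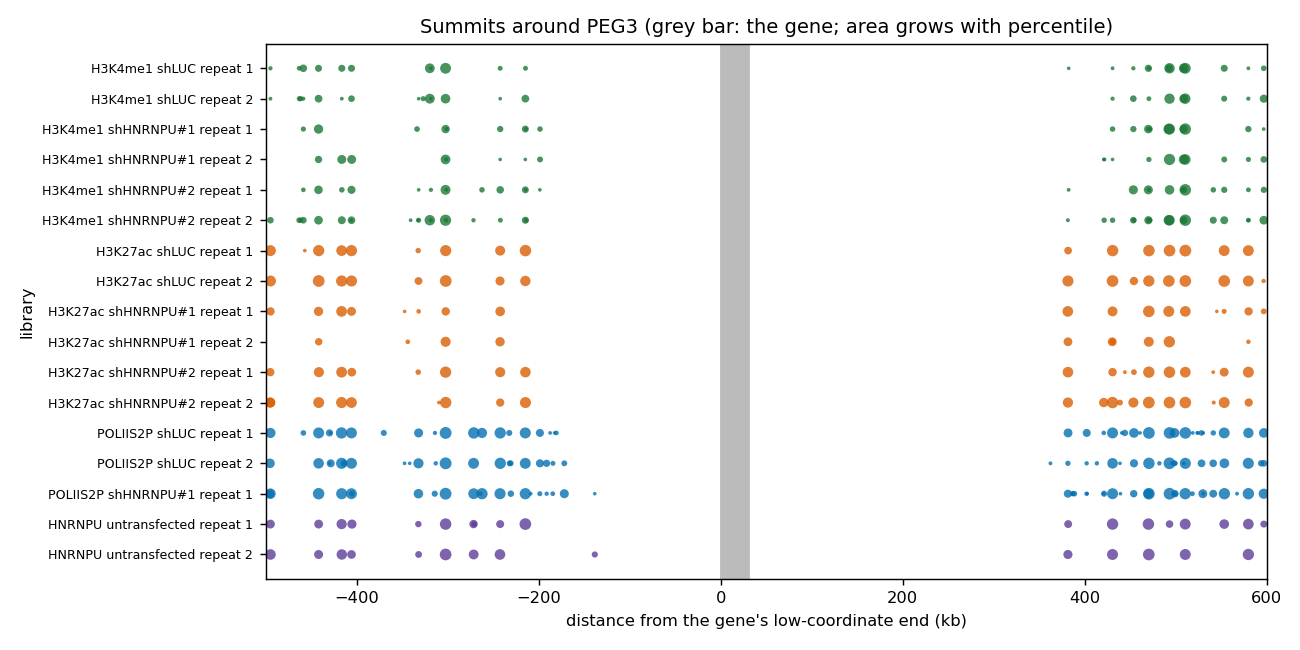
Summits by library (rows) against distance from the low-coordinate end of PEG3 in kb, with area growing with percentile and the gene as a grey bar. The 17 lists share a gap from 138 kb below to 332 kb above the gene, with summits on both sides of it in every list.

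The 4 shHNRNPU libraries were then compared with the 2 shLUC libraries, gene by gene. With 15 possible assignments the smallest exact two-sided permutation p is 0.0667, so no gene can pass 0.05. A gene was instead called where the libraries of the groups did not overlap, and each count was read against the share of all genes called.

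In H3K4me1 no imprinted gene was called, with 9 tested. The background was 5.94% of 47520 genes higher in shHNRNPU and 8.24% lower. The largest differences were at DLK1, with 66.7 ± 8.87 (SD, n = 4) in shHNRNPU and 74.2 ± 0.0198 (SD, n = 2) in shLUC (exact permutation p = 0.333), and at IGF2, with 70.1 ± 5.49 (SD, n = 4) against 74.1 ± 6.06 (SD, n = 2; exact permutation p = 0.533). Both lay within the spread of the libraries. SNRPN differed by -0.25 and PEG10 by -0.491 percentile points. The mean difference over the 9 genes was -0.704 points, and over all genes tested it was -1.16.

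In H3K27ac 1 of 9 genes was called, CDKN1C, which was lower in shHNRNPU. The background was 10.1% of 44804 genes lower and 1.77% higher, so 1 gene of 9 is near the background share. CDKN1C was at 14.2 ± 17.3 (SD, n = 4) in shHNRNPU and 60.8 ± 20.0 (SD, n = 2) in shLUC, a difference of -46.6 points (exact permutation p = 0.0667, the smallest possible). The difference was -50.1 with shHNRNPU#1 and -43.1 with shHNRNPU#2. The call rests on the summits near SLC67A1-AS. With a flank of 5 kb the difference was -19.9 and the groups overlapped, and with the 20000 strongest summits of each list CDKN1C had no H3K27ac summit in any library.

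H19 showed the widest split between the shRNAs in H3K27ac. It was at 15.4 and 0 with shHNRNPU#1, 97.9 and 92.0 with shHNRNPU#2, and 83.8 and 90.3 with shLUC. The shHNRNPU#1 libraries thus lay below both shLUC libraries and the shHNRNPU#2 libraries above both, and over both shRNAs the difference was -35.7 points (exact permutation p = 0.467). The shHNRNPU#1 lists were the shortest H3K27ac lists, and the part of list length in this split was not tested.

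IGF2 and KCNQ1OT1 were also below both shLUC libraries with shHNRNPU#1 alone, and MEST and SNRPN above both with shHNRNPU#2 alone. With H19 and CDKN1C this made 4 genes lower with shHNRNPU#1 alone, where 34.0% of 41821 genes were, and with H19 it made 3 higher with shHNRNPU#2 alone, where 15.3% of 44189 genes were. MEST was at 52.2 ± 37.3 (SD, n = 4) in shHNRNPU and 44.0 ± 12.0 (SD, n = 2) in shLUC (exact permutation p = 0.933). SNRPN was at 97.4 ± 0.904 (SD, n = 4) and 95.7 ± 1.46 (SD, n = 2; exact permutation p = 0.2), and overlapped because 1 shHNRNPU#1 library (96.2) was below 1 shLUC library (96.8). MEG3 had a difference of 13.1 points, within the gap between its shLUC libraries. The mean difference over the 9 genes was -9.54 points with a median of -2.89, and over all genes tested it was -5.78 with a median of -3.67.

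**Figure D5:**
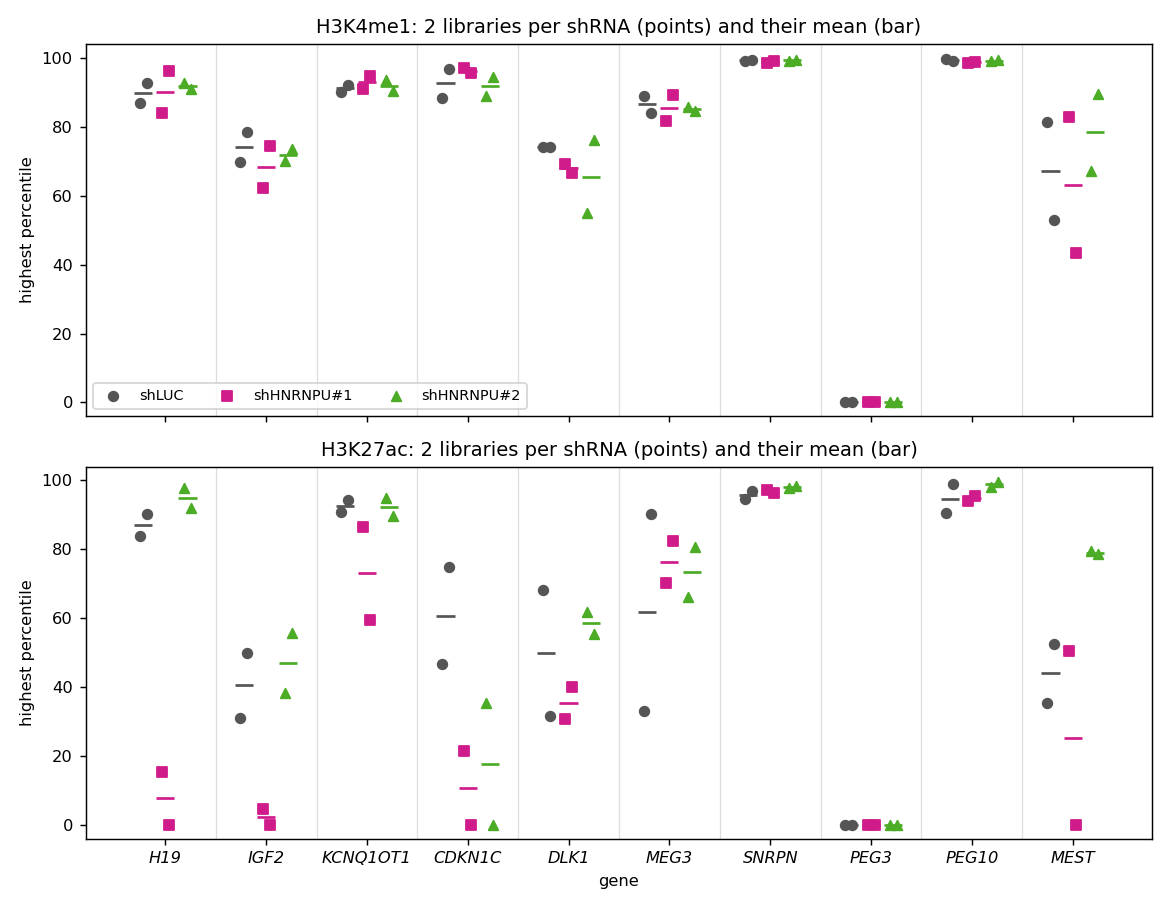
Highest within-list percentile (0 to 100, 0 for no summit) of H3K4me1 (top) and H3K27ac (bottom) for each gene, with points for single libraries and bars for the mean of the 2 libraries of each shRNA. In H3K27ac both shHNRNPU#1 points of H19 lie below both shLUC points and both shHNRNPU#2 points above them, and CDKN1C is lower than shLUC in all 4 shHNRNPU libraries.

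These calls depend on the antibody of the shLUC libraries. Following the titles instead, IGF2, CDKN1C and SNRPN were called higher in H3K4me1, where 39.9% of all genes were, and IGF2, CDKN1C, DLK1, MEG3 and SNRPN were called lower in H3K27ac, where 45.2% were.

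POLIIS2P had 1 library in shHNRNPU cells. With 1 library against 2 the smallest exact permutation p is 0.333, so the values are given side by side with no test. That library was above both shLUC libraries at 3 genes and below both at 3, against 31.6% and 37.2% of 34559 genes. H19 was at 41.2 against 20.1 and 16.3, CDKN1C at 72.1 against 62.8 and 66.0, and PEG10 at 97.5 against 96.8 and 96.5. MEST was at 78.4 against 88.2 and 78.7, SNRPN at 96.0 against 97.4 and 97.5, and KCNQ1OT1 at 79.96 against 83.01 and 80.03. The highest summits of the 3 libraries shared a site at SNRPN and PEG10, but not at H19, IGF2, CDKN1C, MEST or KCNQ1OT1. At MEST the shHNRNPU#1 summit was at chr7:130486296, where shLUC had 69.2 and 35.9 close by. The shLUC summits were at chr7:130492250 and chr7:130492210, where shHNRNPU#1 had 75.4 close by. At KCNQ1OT1 the 80.03 came from chr11:2645217, and the other 2 values from near chr11:2693904. IGF2 was at 49.9, between its 2 shLUC values of 30.4 and 71.0. Only at H19 did the library differ from the shLUC mean by over 20 points, and there the values of all 3 libraries were in the lower part of their lists.

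A list of 31 other imprinted genes was examined in the same way. Some of them share a window or a cluster with the 10 genes or with each other. In H3K4me1, 28 had a summit, 2 were called higher and 2 lower, beside 5.94% and 8.24% of all genes, so these counts are near the background shares. The called genes with the largest differences were GRB10, a growth factor receptor adaptor, at -2.03 points, KCNQ1, a potassium channel whose window contains KCNQ1OT1, at 1.54, and INPP5F, an inositol phosphatase, at -0.976. In H3K27ac, 24 had a summit and 7 were called lower, none higher, beside the 10.1% and 1.77% of all genes given above. The largest were ZDBF2, a paternally expressed zinc-finger gene, at -42.6 points, GNAS-AS1, an antisense RNA of the GNAS cluster, at -40.8, and RTL1, a retrotransposon-derived gene of the DLK1 and MEG3 cluster, at -31.6. RTL1 was at 3.98 ± 6.43 (SD, n = 4) in shHNRNPU and 35.6 ± 11.9 (SD, n = 2) in shLUC (exact permutation p = 0.0667). HNRNPU was present in both repeats at 17 of the 31 and POLIIS2P in all 3 lists at 19. The shares were 43.3% and 46.9% over all genes, and 74.0% and 75.1% over protein-coding genes.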

How the data were processed

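The 17 CUT&Tag libraries of H1 cells came as 1 summit list each, and the imprinted genes and gene lists were chosen with earlier results of these data known. The submitters' processing notes name cutadapt, Bowtie2, SAMtools, MACS2, deepTools and hg38, without versions, roles or parameters. The deposited score of a summit was read as −log10 of a p- or q-value, since the lists have the layout of MACS2 summits and start at 2.00 to 2.01 (histone antibodies) or 1.30 (others). A deposited list of 48095 HNRNPU intervals, with a score of 0 throughout, was used for positions only. The paper given with the series describes other cells and was not used as a source of methods.

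Scores were ranked within each list (average rank, as a percentile), and genes came from RefSeq GRCh38.p14, whose table gives no exons. Coordinates are 1-based. Summits within 500 bp of the next were chained into sites. Of the other imprinted genes and markers, SLC22A18 and TDGF1 were matched by synonym. One marker gene of another cell type is not reported here. Groups were compared by exact two-sided permutation of the difference of means. All 10 genes are named. Of the other imprinted genes that were called, at most the 3 with the largest difference per antibody are named. Neighbours of the 10 genes and examples of the other imprinted genes with high HNRNPU are named as well. Python 3.11.15, NumPy 2.4.6, pandas 2.3.3, SciPy 1.17.1 and matplotlib 3.10.9 were used. The window lookup and the calls were tested on simulated data. Alternatives were other antibody names, flanks, list lengths, score minimum, summit number as the value, single shRNAs, left-out libraries and a replicate block.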

Additional observations from a re-analysis of the deposited data

Results flagged for a closer look

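In H3K27ac at H19, both shHNRNPU#1 libraries lay below both shLUC libraries and both shHNRNPU#2 libraries above them. The mean of shHNRNPU#2 was 87.2 percentile points above that of shHNRNPU#1. The difference between the shRNAs was not tested, and the share of all genes with such a split was not counted. Over all genes, 34.0% were lower with shHNRNPU#1 alone and 15.3% higher with shHNRNPU#2 alone. Over 18 groups of 4 shHNRNPU libraries (9 genes with each histone antibody), no library stood apart by more than Dixon's critical value for the gap to its neighbour, where chance alone flags about 1 in 20.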

How the results depend on the processing

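Numbers of called genes were small and moved with most choices, and each is followed by the share of all genes called the same way. In H3K4me1 (0 higher and 0 lower), the count higher was 3 with the antibody names of the titles (39.9%), 1 with a flank of 5 kb (MEG3, 5.75%) and 2 with the number of summits per 10000 as the value (9.28%). The count lower was 1 with the 20000 or the 30000 strongest summits (PEG10 in both, 7.38% and 7.47%), 1 with the number of summits (MEG3, 5.81%) and 3 with shHNRNPU#1 alone (DLK1, SNRPN and PEG10, 28.7%). In H3K27ac (0 higher and 1 lower), the count higher was 1 with the 20000 or 30000 strongest (SNRPN in both, 3.69% and 3.92%) and 3 with shHNRNPU#2 alone (15.3%). The count lower was 5 with the titles (45.2%), 0 with a flank of 5 kb (9.81%), with the 20000 or 30000 strongest (7.22% and 7.17%) and with a score of at least 5 (10.5%), and 4 with shHNRNPU#1 alone (34.0%). Leaving out 1 library gave 0 to 2 higher and 0 to 3 lower in H3K4me1, and 0 to 3 higher and 1 to 2 lower in H3K27ac. The 3 lower in H3K4me1 came without shHNRNPU#2 repeat 2 (16.7%), and the 2 and 3 higher without shLUC repeat 2 (15.7% and 10.5%). In H3K4me1, 1 was lower without shLUC repeat 1 (IGF2, 20.9%) and without shLUC repeat 2 (PEG10, 21.5%). In H3K27ac, 2 were lower without shHNRNPU#2 repeat 1, shLUC repeat 1 or shLUC repeat 2 (KCNQ1OT1, MEG3 or DLK1 beside CDKN1C, with 16.1%, 34.2% and 19.6%), and 1 was higher without shHNRNPU#1 repeat 2 (SNRPN, 5.10%). CDKN1C stayed lower in H3K27ac without any 1 library (-60.7 to -32.4 points).

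The mean difference over the genes in H3K4me1 (-0.704) was 15.7 with the titles, 5.70 with the 20000 strongest and 4.64 with the 30000 strongest, and in H3K27ac (-9.54) it was -25.9 with the titles. As summits per 10000 it was 0.0274 and 0.0396. Repeat numbers did not pair the libraries (correlations of deviations of -0.0226 to 0.0271 over genes). With the number as a replicate block the counts were 0 and 0 in H3K4me1 and 0 and 1 in H3K27ac, with mean differences of -0.704 and -9.54, and the smallest p it allows is 0.111. HNRNPU was in both repeats at 5 genes with a score of at least 5, in place of 8. In POLIIS2P the count above both shLUC libraries was 1 with the 20000 strongest (37.7%), and the count below was 1 with the 20000 or 30000 strongest (31.1% in both), in place of 3. Other alternatives kept these counts within 1.5 times, those with a mark within 250 or 1000 bp included. The causes were not tested. Depth is unknown, so an empty window is not shown to lack the mark.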
